A study of Homo sapiens with 6 samples.

Results

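The genes described here are 10 secreted inflammatory cytokines and chemokines that are known targets of the transcription factor NF-kB: CCL20, IL6, CXCL8, CXCL1, CXCL2, CXCL3, IL1A, IL1B, LIF and CSF2. They were chosen by name, with earlier results of these data known, and every array probe annotated to one of them was taken. A total of 9 of the 10 genes had such a probe, of 20045 named genes with one, which gave 10 probes of the 47319 on the array, with 2 probes for CXCL8 (IL8 in older annotation). CSF2 is not analysed here, since no annotated probe carried its name. Of the 10 probes, 9 gave a signal above background on all 6 arrays, and the CXCL3 probe gave one on none.

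The arrays measured mRNA of MDA-MB-231, a human breast cancer cell line of the basal-like kind. The DROSHA-sh cells stably expressed a small hairpin RNA against DROSHA, the nuclear enzyme that releases miRNA hairpins from their primary transcripts, and the DICER1-sh cells one against DICER1, the cytoplasmic enzyme that cuts those hairpins into mature miRNAs. Control cells were of the same line and carry the shRNA label "control", which does not say whether they held a hairpin of their own. All 3 groups were otherwise untreated, and each had 2 arrays, called replicates 1 and 2. The labels do not say whether a line was 1 clone, nor whether replicates were grown apart, so errors and p-values measure no more than array-to-array spread, which could be technical.

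NF-kB dimers are held in the cytoplasm by inhibitor proteins until a kinase complex marks the inhibitors for destruction. The freed dimers enter the nucleus, bind short kappaB elements in promoters and start the transcription of cytokine genes, of genes for the inhibitors themselves and of other feedback regulators. Many cytokine mRNAs are short-lived, so their level follows both transcription and decay. MDA-MB-231 cells are known to secrete IL6 and CXCL8 in culture without a stimulus.

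The promoters are shown because the genes were chosen as NF-kB targets and because CXCL1, CXCL2 and CXCL3 carry nearly the same element. RefSeq (GRCh38.p14) supplied an upstream sequence for 9 of the 10 genes, all but LIF, with 2 start sites for IL1A and so 10 promoters. Each line gives the 120 bases before the start site, 5′ to 3′ on the strand of the gene, with the match to the kappaB consensus (for CXCL8, to the shorter GGAATTTCC) in capitals.
CCL20: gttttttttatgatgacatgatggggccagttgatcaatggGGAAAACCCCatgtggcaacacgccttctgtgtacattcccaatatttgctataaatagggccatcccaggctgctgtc
IL6: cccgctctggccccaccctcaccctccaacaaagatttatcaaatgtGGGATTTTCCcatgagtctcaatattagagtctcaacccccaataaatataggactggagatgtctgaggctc
CXCL8: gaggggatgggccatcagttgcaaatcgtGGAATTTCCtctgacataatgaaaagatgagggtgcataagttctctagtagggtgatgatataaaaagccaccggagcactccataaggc
CXCL1: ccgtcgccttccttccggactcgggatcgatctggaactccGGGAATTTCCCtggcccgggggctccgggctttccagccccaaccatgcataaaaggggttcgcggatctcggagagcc
CXCL2: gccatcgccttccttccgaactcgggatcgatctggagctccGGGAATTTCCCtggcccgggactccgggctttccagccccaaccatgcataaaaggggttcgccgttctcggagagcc
CXCL3: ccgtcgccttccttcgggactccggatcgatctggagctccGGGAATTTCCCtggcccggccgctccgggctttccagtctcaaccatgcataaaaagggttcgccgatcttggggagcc

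These windows lie at chr2:227813722-227813841 (CCL20, plus strand), chr7:22727080-22727199 (IL6, plus), chr4:73740449-73740568 (CXCL8, plus), chr4:73869273-73869392 (CXCL1, plus), chr4:74099196-74099315 (CXCL2, minus) and chr4:74038690-74038809 (CXCL3, minus). In the 250 bases before the start, on both strands, the kappaB consensus matched 5 of the 10 promoters, those of CCL20, IL6, CXCL1, CXCL2 and CXCL3, and 9.96% of all 35114 promoters searched in the same way. The letters GGAATTTCC, which overlap the consensus match in CXCL1, CXCL2 and CXCL3, were in 4 of the 10 and in 0.413% of all. In CXCL1 the shared letters began 78 bases before the start, in CXCL2 77, in CXCL3 78 and in CXCL8 91. Over these letters and 25 bases on each side, without gaps, CXCL1 and CXCL3 were identical at 55 of 59 bases, CXCL1 and CXCL2 at 48, and CXCL1 and CXCL8 at 24. The AP-1 letters TGANTCA were in 3 of the 10, those of CXCL8 and both of IL1A, and in 6.57% of all. The promoters of IL1B and CSF2 held none of these 3 motifs in this window. Since the genes were picked as NF-kB targets, the kappaB matches are a description of them and no independent result.

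Across the 3 groups, most of these transcripts had their highest level in DROSHA-sh cells. Both DROSHA-sh arrays lay above all 4 other arrays for 7 of 9 probes, those of CCL20, IL6, CXCL1, CXCL2, IL1A, IL1B and the brighter CXCL8 probe, against 7.32% of the 22091 probes tested. Both DICER1-sh arrays were above the other 4 for 0 of 9 (4.44% of all probes), and both control arrays for 0 of 9 (4.37%). Since the genes were chosen with earlier results of these data known, these counts describe them and are no independent result. IL6 and CCL20 stood about 2-fold above control in DROSHA-sh cells. The others stood less far above control, except the dimmer CXCL8 probe, which was at -0.05 (log2 difference). In DICER1-sh cells the same genes were mixed, with CCL20 and LIF above control by their means and both CXCL8 probes below. None of these differences passed the test across all probes, limma with Benjamini-Hochberg adjustment and a threshold of 0.05, so each one below is a measured value and not a called change.

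**Figure D1:**
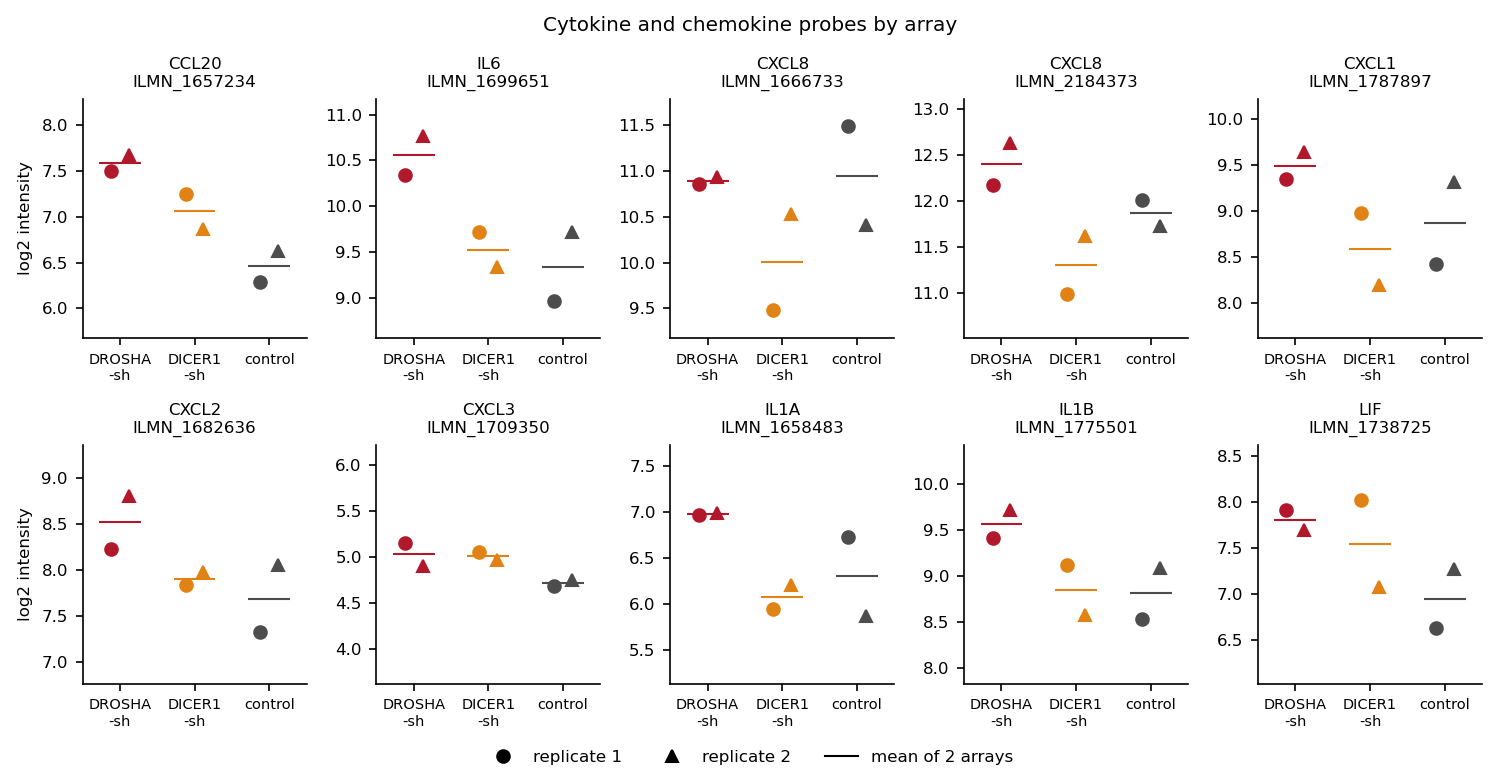
Normalised log2 intensity (vertical axes, each spanning 2.6 log2 units) of the 10 cytokine and chemokine probes in DROSHA-sh, DICER1-sh and control cells. Circles are replicate 1, triangles replicate 2 and lines the mean of 2 arrays. Both DROSHA-sh arrays are above the other 4 arrays for 7 probes, not for CXCL8 ILMN_1666733, LIF or CXCL3, whose probe was not above background on any array.

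The arrays themselves set the limits. Between 42.0% and 44.4% of probes were above background on an array (detection p-value below 0.05). The transcript each hairpin targets was lowest in its own cells: the brighter DROSHA probe (ILMN_1790410) averaged 8.99 ± 0.02 in DROSHA-sh cells and 11.25 ± 0.47 in control cells, and the brighter DICER1 probe (ILMN_1772692) 8.54 ± 0.17 in DICER1-sh cells and 9.95 ± 0.84 in control cells (log2 intensity, SD, n = 2 each). The 2 DROSHA-sh arrays were close to each other, with an SD of the log2 difference over probes of 0.306, against 0.704 for the DICER1-sh pair and 0.777 for the control pair. Control 1 and DICER1-sh 2 deviated from their partners together: deviations of same-numbered arrays of these 2 groups correlated at -0.65 over the probes. All arrays were on 1 chip and the letters of their positions run with the groups, so position and group cannot be told apart. The 8 markers of this line that were looked up, among them VIM, CD44 and AXL, were above background on all 6 arrays. Of 6 luminal markers with a probe, ESR1, PGR and CDH1 were above background on no array. KRT8 was above background on all 6 arrays and GATA3 on 3.

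Since these are leukocyte cytokines as well, markers of other cells were read beside them. Of 11 leukocyte markers with a probe, 4 were above background on all 6 arrays (CD14, CD68, CSF1R and LYZ) and MS4A1 on 4. The other 6, PTPRC, ITGAM, TYROBP, CD3E, MPO and FCER1G, were above background on none. The summed level of the 11 ranged from 4825 to 5302 in DROSHA-sh cells and from 4500 to 5458 in DICER1-sh cells. In control cells it ranged from 4287 to 4847 (normalised linear intensity). CD68, with log2 intensities of 11.87 to 12.21, made up most of this sum. The sums here also take in markers not above background, so they do not measure the amount of a cell type. The fibroblast markers summed to 446.0 to 449.0 in DROSHA-sh, 416.0 to 492.7 in DICER1-sh and 407.9 to 424.1 in control cells. Of 8 with a probe, COL1A1, COL3A1, PDGFRB and FAP were above background on no array. ACTA2 was above background on all 6 arrays, DCN on 5 and COL1A2 on 3. For endothelial markers the sums were 190.4 to 230.1 in DROSHA-sh, 195.3 to 241.6 in DICER1-sh and 181.0 to 205.1 in control cells. Of 5 with a probe, VWF, CDH5, KDR and TEK were above background on no array and PECAM1 on all 6. In a bulk RNA sample, more cells that make a transcript and more transcript per cell cannot be told apart.

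The chemokines that attract neutrophils come first. CXCL8, CXCL1, CXCL2 and CXCL3 act through the receptor CXCR2, and CXCL8 through CXCR1 as well, and their genes lie in 1 cluster on chromosome 4. CXCL8, also called interleukin 8, had 2 probes. The first, ILMN_2184373, had log2 intensities of 12.17 and 12.63 in DROSHA-sh cells, 10.99 and 11.62 in DICER1-sh cells, and 12.01 and 11.73 in control cells. All 3 groups stood apart at this probe, DROSHA-sh highest and DICER1-sh lowest, though the nearest arrays of DROSHA-sh and control were only 0.17 apart. The other CXCL8 probe, ILMN_1666733, had 10.85 and 10.93 in DROSHA-sh cells, 9.48 and 10.53 in DICER1-sh cells, and 11.48 and 10.41 in control cells. Here control 1 was the highest of all 6 arrays, and DROSHA-sh lay between the 2 control arrays.

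The 2 CXCL8 probes gave different values for DROSHA-sh against control. At ILMN_2184373 the log2 difference was 0.53 with a standard error of 0.34 (95% interval -0.26 to 1.33), and at ILMN_1666733 it was -0.05 with a standard error of 0.47 (interval -1.16 to 1.06). Without control 1 the value at ILMN_1666733 was 0.48 and that at ILMN_2184373 was 0.67, so the difference in sign rests on control 1. Without control 2 the value at ILMN_1666733 was -0.58, and without DROSHA-sh 2 that at ILMN_2184373 was 0.31. Both probes placed DROSHA-sh above DICER1-sh with no overlap of arrays, by 1.10 with a standard error of 0.34 and by 0.89 with a standard error of 0.47. Against control, DICER1-sh stood at -0.56 and -0.94 at the 2 probes, with intervals of -1.35 to 0.23 and -2.06 to 0.17. Without DICER1-sh 1 these were -0.25 and -0.42, and without DICER1-sh 2 they were -0.87 and -1.47. At ILMN_1666733 the value was -0.41 without control 1 and -1.48 without control 2. Its difference between DROSHA-sh and DICER1-sh was 0.37 without DICER1-sh 1 and 1.41 without DICER1-sh 2.

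CXCL1 (ILMN_1787897), a growth factor-like neutrophil chemokine first found in melanoma, had 9.34 and 9.64 in DROSHA-sh cells, 8.97 and 8.19 in DICER1-sh cells, and 8.42 and 9.31 in control cells. DROSHA-sh was above both other groups, but its lower array was only 0.03 above the higher control array. The log2 difference of CXCL1 was 0.62 from control (standard error 0.41) and 0.91 from DICER1-sh (standard error 0.41). Without control 1 the difference of CXCL1 from control was 0.18 and without control 2 it was 1.07, so its size rests on which control array is used. Without DICER1-sh 2 the difference of CXCL1 from DICER1-sh was 0.52.

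CXCL2 (ILMN_1682636), its close paralog, had 8.23 and 8.80 in DROSHA-sh cells, 7.83 and 7.98 in DICER1-sh cells, and 7.32 and 8.05 in control cells. DROSHA-sh was again highest, and the 2 DICER1-sh arrays lay between the 2 control arrays. CXCL2 stood at 0.83 from control with a standard error of 0.36 (interval -0.01 to 1.67), 1.78-fold higher, and at 0.61 from DICER1-sh with the same standard error. Without control 1 its difference from control was 0.46, and without DROSHA-sh 2 it was 0.55. Without DROSHA-sh 2 the difference of CXCL2 from DICER1-sh was 0.33.

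CXCL3 (ILMN_1709350) gave raw intensities of 149.2 and 126.9 in DROSHA-sh cells, 133.9 and 128.0 in DICER1-sh cells, and 117.1 and 112.2 in control cells, with detection p-values of 0.284 or more on each array. No fold is given for it, since all 3 groups were not above background. Of the other protein-coding genes that lie between CXCL8 and CXCL2 in RefSeq, CXCL6, PF4V1, PF4 and CXCL5 had no probe above background on any array. PPBP, a platelet chemokine, was above background on all 6 and stood at 0.29 in DROSHA-sh and -0.15 in DICER1-sh against control (log2 difference). The array annotation gives no probe sequences here, so cross-binding between the transcripts of the paralogs CXCL1, CXCL2 and CXCL3 was not tested.

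CCL20, the ligand of CCR6 that attracts dendritic cells and T helper cells, showed the most even ordering. Its probe (ILMN_1657234) had 7.50 and 7.67 in DROSHA-sh cells, 7.25 and 6.87 in DICER1-sh cells, and 6.29 and 6.63 in control cells. The 3 groups did not overlap, with DICER1-sh between DROSHA-sh and control. CCL20 was 2.18-fold higher in DROSHA-sh than in control, a log2 difference of 1.12 with a standard error of 0.29 (interval 0.44 to 1.81), and it ranked 121 from the highest of 22091 probes. In DICER1-sh it stood 0.60 above control with a standard error of 0.29 (interval -0.09 to 1.29), and DROSHA-sh stood 0.53 above DICER1-sh (interval -0.16 to 1.22). CCL20 was a dim probe, with raw intensities of 203.7 to 325.6, and with no background correction its difference was 0.58 between DROSHA-sh and control, 0.28 between DICER1-sh and control and 0.30 between DROSHA-sh and DICER1-sh. Without DICER1-sh 2 the last of these, with background correction, was 0.34.

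Of the 2 genes among these 10 whose products signal through the shared receptor gp130, IL6 had the larger difference in DROSHA-sh. IL6 (ILMN_1699651), the main inducer of the acute phase response and an activator of STAT3, had 10.34 and 10.77 in DROSHA-sh cells, 9.72 and 9.34 in DICER1-sh cells, and 8.97 and 9.72 in control cells. Both DROSHA-sh arrays were at least 0.62 above every other array, while DICER1-sh and control overlapped. The log2 difference of IL6 was 1.21 from control with a standard error of 0.36 (interval 0.36 to 2.05), 2.31-fold, and 1.03 from DICER1-sh with a standard error of 0.36 (interval 0.18 to 1.87). Without control 1 the difference from control was 0.83, and without control 2 it was 1.58. In DICER1-sh, IL6 stood at 0.18 against control with an interval of -0.66 to 1.02, and at -0.20 without control 1.

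LIF (ILMN_1738725), the leukemia inhibitory factor, is the other gp130 cytokine. It had 7.92 and 7.70 in DROSHA-sh cells, 8.02 and 7.08 in DICER1-sh cells, and 6.63 and 7.27 in control cells. DROSHA-sh lay above control, but DICER1-sh 1 was the highest array of all. LIF stood at 0.87 in DROSHA-sh against control (standard error 0.40) and at 0.61 in DICER1-sh against control (standard error 0.40). The LIF value in DROSHA-sh against control was 0.54 without control 1 and 0.49 with no background correction. In DICER1-sh against control it was 0.28 without control 1, 0.93 without control 2, 0.14 without DICER1-sh 1, 1.08 without DICER1-sh 2 and 0.35 with no background correction. Between DROSHA-sh and DICER1-sh the LIF difference was 0.26 with an interval of -0.68 to 1.2, and without DICER1-sh 2 it was -0.21.

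IL1A and IL1B, neighbouring genes on chromosome 2 whose products bind the same receptor and themselves activate NF-kB, were both highest in DROSHA-sh cells. IL1B (ILMN_1775501) had 9.41 and 9.72 in DROSHA-sh cells, 9.12 and 8.57 in DICER1-sh cells, and 8.53 and 9.09 in control cells. DROSHA-sh was above all 4 other arrays, and the means of DICER1-sh and control differed by 0.03. IL1B stood at 0.76 from control (standard error 0.34, interval -0.05 to 1.56) and at 0.73 from DICER1-sh (standard error 0.34, interval -0.08 to 1.53). Without control 1 the difference from control was 0.47, and without DICER1-sh 2 that from DICER1-sh was 0.45.

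IL1A (ILMN_1658483) had 6.97 and 6.99 in DROSHA-sh cells, 5.94 and 6.20 in DICER1-sh cells, and 6.73 and 5.87 in control cells. Its 2 DROSHA-sh arrays were nearly equal, and the control arrays spanned the range of DICER1-sh. The IL1A difference was 0.68 from control (standard error 0.35) and 0.91 from DICER1-sh (standard error 0.35, interval 0.09 to 1.74). Without control 1 the difference from control was 1.12, and without control 2 it was 0.25. IL1A was near the detection limit, with detection p-values of 0.0325 on DICER1-sh 1 and 0.0377 on control 2, and with no background correction its difference was 0.30 from control and 0.40 from DICER1-sh.

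**Figure D2:**
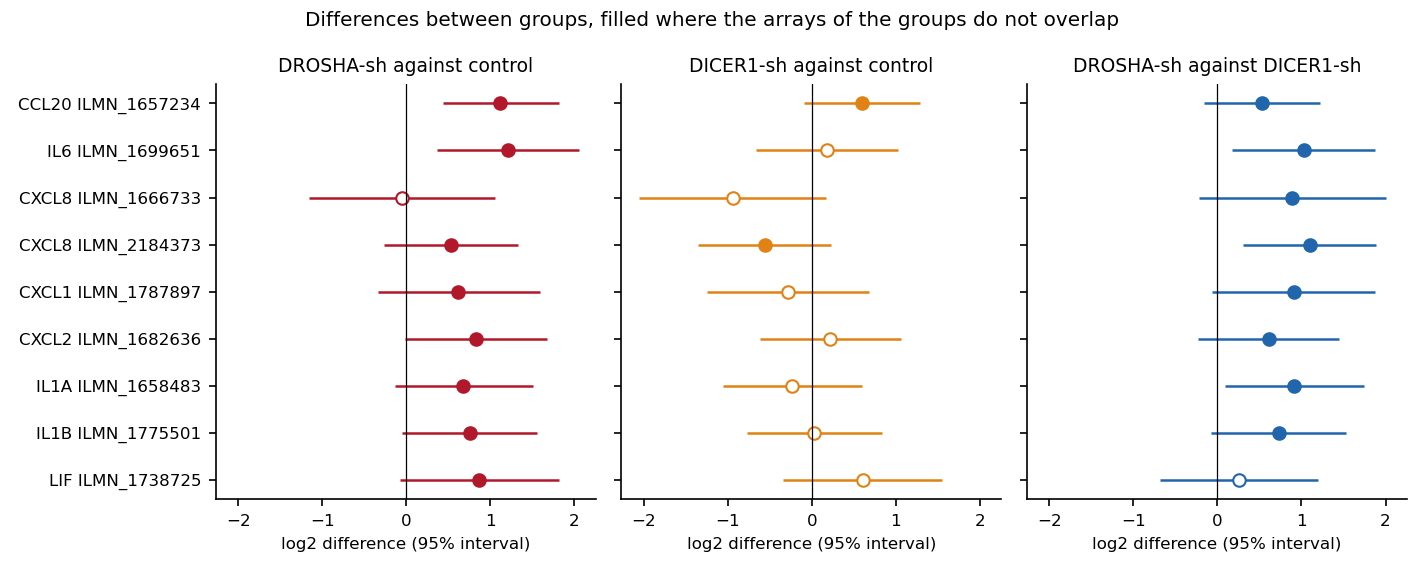
Log2 difference between groups (points) with its 95% interval (lines) for the 9 measured probes in each comparison. Points are filled where the arrays of the 2 groups do not overlap, which holds for 8 of 9 probes in DROSHA-sh against control (37.3% of all probes, both directions together), 2 of 9 in DICER1-sh against control (20.1%) and 8 of 9 in DROSHA-sh against DICER1-sh (33.1%).

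DROSHA-sh was set against control to see which mRNAs respond when miRNA synthesis is inhibited at its nuclear step. The median log2 difference over the 9 probes was 0.76, with a range of -0.05 to 1.21 and 8 of 9 above 0, beside a median of 0.012 over all 22091 probes and 51% of them above 0. All DROSHA-sh arrays lay above all control arrays for 8 of 9 probes, against 19.1% of all probes, and no member lay below, against 18.2%. Comparing with control 2 alone, which leaves out control 1, this held for 9 of 9, against 37% of all probes. A difference of at least 2-fold on the higher side was reached by IL6 and CCL20, and by 0.896% of all probes. limma placed 0 of 22091 probes below an adjusted p of 0.05 (0% of them; 622, or 2.82%, were below an unadjusted p of 0.05, 2 members among them), the smallest adjusted p being 0.0986. The adjusted p was 0.978 for CXCL8 ILMN_1666733 and 0.856 for each of the other 8 member probes. An exact permutation of 2 arrays against 2 cannot give a two-sided p below 0.333, so no such test was added.

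DICER1-sh against control, which addresses the cytoplasmic step, gave no common direction. No member was 2-fold or more higher, against 0.308% of all probes. The median over the 9 probes was 0.03, with a range of -0.94 to 0.61 and 5 of 9 above 0, beside a median of 0.006 over all probes and 50.6% of them above 0. CCL20 was the 1 probe with both DICER1-sh arrays above both control arrays (10.4% of all probes), and CXCL8 ILMN_2184373 the 1 with both below (9.62% of all). The first count was 5 without control 2 (39% of all probes), 3 without DICER1-sh 2 (36.9%) and 2 without control 1 (25.9%), so it moved with the share over all probes. CXCL1 stood at -0.28, at 0.16 without control 2 and at 0.10 without DICER1-sh 2. CXCL2 stood at 0.22 and at -0.15 without control 1, IL1A at -0.23 and at 0.20 without control 1, and IL1B at 0.03 and at -0.25 without control 1. Here limma again placed 0 probes below an adjusted p of 0.05 (0%; 384, or 1.74%, were below an unadjusted p of 0.05, no member among them). Its smallest adjusted p was 0.969, and the members stood at 0.969, or 0.992 for IL1B.

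Between DROSHA-sh and DICER1-sh the difference of means leaves out the control arrays, which still enter its standard errors, intervals and p-values through the shared fit. All 9 member probes were above 0, with a median of 0.89 and a range of 0.26 to 1.10, beside a median of 0.006 and 50.8% above 0 over all probes. All DROSHA-sh arrays lay above all DICER1-sh arrays for 8 of 9, against 16.3% of all probes, and no member lay below, against 16.9%. IL6 and CXCL8 ILMN_2184373 were at least 2-fold higher, as were 0.584% of all probes. CXCL8 ILMN_2184373, IL6, IL1A and CXCL1 ranked 83, 116, 201 and 205 from the highest of 22091. No probe passed in limma (0%; 494, or 2.24%, were below an unadjusted p of 0.05, 3 members among them), the smallest adjusted p being 0.0782, and that of each member rounded to 1. Both comparisons of DROSHA-sh use the same 2 DROSHA-sh arrays, so they are not independent of each other.

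How the 2 arrays of a group differed split the genes in another way. In control cells, replicate 2 was above replicate 1 for IL6 by 0.75, for CXCL1 by 0.89, for CXCL2 by 0.73, for LIF by 0.64, for IL1B by 0.57 and for CCL20 by 0.34 (log2 differences). The CXCL8 probes and IL1A went the other way, with control 2 minus control 1 at -1.07 and -0.28 for CXCL8 and -0.86 for IL1A. In DICER1-sh cells the same split appeared turned round: replicate 2 minus replicate 1 was -0.77 for CXCL1, -0.94 for LIF, -0.55 for IL1B and -0.38 for both IL6 and CCL20, against 1.05 and 0.63 for CXCL8 and 0.27 for IL1A, with CXCL2 at 0.15. Thus 5 of 9 probes had control 2 above control 1 together with DICER1-sh 1 above DICER1-sh 2, which 37.7% of all probes did. Over all kept probes the deviations within these 2 pairs also ran opposite, with a correlation of -0.65. The turned split is therefore a trait of these arrays and not particular to these genes. The DROSHA-sh pair differed by -0.22 to 0.57, with replicate 2 above replicate 1 for 8 of 9 probes (50.6% of all), against 4 of 9 in DICER1-sh (47.8%) and 6 of 9 in control cells (50.8%). For IL1A, CXCL1 and CXCL8 ILMN_1666733, the difference within the control pair was larger than that between the means of DROSHA-sh and control.

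**Figure D3:**
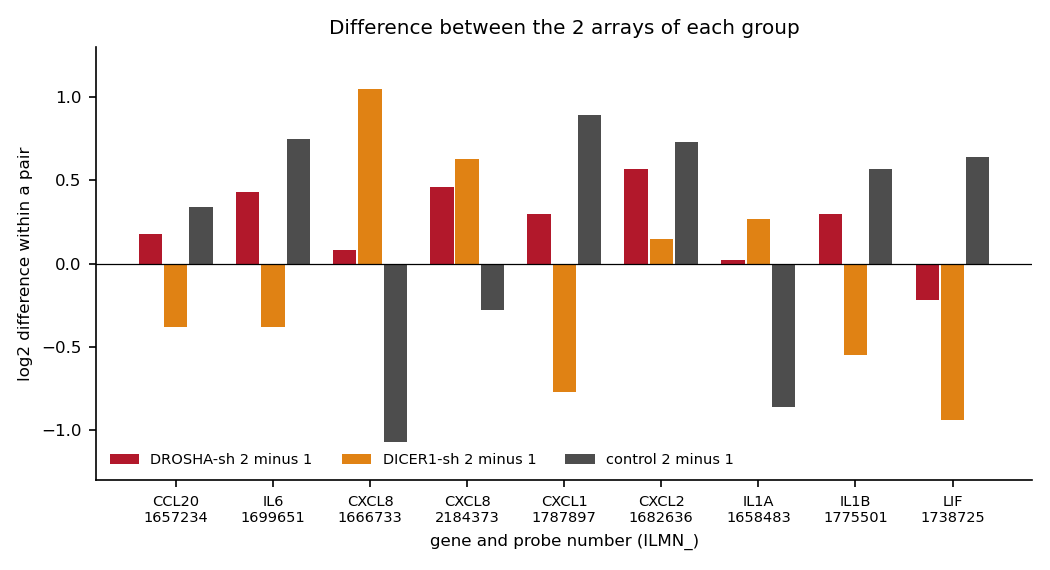
Log2 difference between replicate 2 and replicate 1 (bars, from 0) in DROSHA-sh, DICER1-sh and control cells for each measured probe. CXCL8 and IL1A run below 0 in the control pair (-1.07, -0.28 and -0.86) where the other 6 probes run above 0.

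On the raw intensities, before any background correction or scaling, both DROSHA-sh arrays lay above both control arrays for 6 of 9 probes, against 27% of all kept probes, and above both DICER1-sh arrays for 8 of 9, against 32.3%. Both DICER1-sh arrays lay above both control arrays for 2 of 9, against 6.82%. CXCL8 ILMN_2184373 (4858 and 6648 in DROSHA-sh, 4883 and 3040 in control cells) and IL1A (256.2 and 248.4 in DROSHA-sh, 252.6 and 168.3 in control cells) overlapped there and did not after normalisation. For CCL20 the raw values of control 1 and control 2 were 216.2 and 203.7, and the normalised ones 6.29 and 6.63, so the order of the 2 control arrays turned with the scaling.

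The rest of the NF-kB pathway was read from lists named by function, 1 probe per gene, against the same background over all probes. That background also holds dim, second and unnamed probes, so it is not a like set. Of all kept probes, 51% were above 0 in DROSHA-sh against control and 50.6% in DICER1-sh against control. No gene of any list passed an adjusted p of 0.05 in limma in either direction, in any of the 3 comparisons. Among feedback regulators and intracellular targets of NF-kB, 13 of 14 measured genes were above 0 in DROSHA-sh against control, with a median log2 difference of 0.34, and 11 of 14 did not overlap control on the higher side (19.1% of all probes). SOD2, the mitochondrial superoxide dismutase, had a log2 difference of 0.98 (standard error 0.37), PLAU, the urokinase, one of 0.70 (standard error 0.27) and IER3, a survival regulator, one of 0.81 (standard error 0.36). In DICER1-sh against control, 9 of these 14 were above 0 and the median was 0.14.

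Subunits and upstream kinases of NF-kB were mixed, with 8 of 14 above 0 in DROSHA-sh against control and a median of 0.05. RELB, the subunit of the non-canonical pathway, had 8.72 and 8.69 in DROSHA-sh cells, 8.94 and 7.64 in DICER1-sh cells, and 7.22 and 8.07 in control cells. Its DROSHA-sh arrays were above both control arrays, by 1.06 in the mean with a standard error of 0.48, and DICER1-sh 1 was the highest of all. IRAK2, a kinase of the IL1 receptor complex, stood at -0.42 and MYD88, its adaptor, at 0.45.

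Of the receptors, 7 of 12 were measured, and 3 of the 7 were above 0 in DROSHA-sh against control, with a median of -0.05. IL1R1, the signalling receptor of IL1A and IL1B, stood at 0.77 with a standard error of 0.26, IL1RAP, its partner chain, at 0.37, and IL1RN, the secreted antagonist of that receptor, at 0.50. IL1RN was above background on 2 arrays, both of DROSHA-sh, so it entered the test through the group where it was high. Among genes of the activation of IL1, 6 of 10 were above 0. CASP1, the protease that matures IL1B, had 6.36 and 6.31 in DROSHA-sh cells, 7.28 and 6.87 in DICER1-sh cells, and 6.94 and 7.41 in control cells. It was lower in DROSHA-sh than in both other groups, by -0.84 from control with a standard error of 0.30, while AIM2, a DNA sensor that recruits it, stood at 0.67 and NLRP3, another sensor, at -0.41.

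Factors that bind cytokine mRNAs and control their decay had 3 of 9 above 0 in DROSHA-sh against control and a median of -0.09. ZC3H12A, the nuclease Regnase-1 that degrades IL6 mRNA and is itself induced by NF-kB, had 7.33 and 7.49 in DROSHA-sh cells, 7.56 and 6.76 in DICER1-sh cells, and 6.01 and 6.09 in control cells. Both knockdown groups lay above control, by 1.36 and 1.11 in the mean. TIA1 stood at -0.80 and HNRNPD, also called AUF1, at -0.53 in DROSHA-sh against control. In the STAT3 response, which IL6 and LIF activate, 7 of 11 were above 0 with a median of 0.05. STAT3 stood at 0.47, JUNB at 0.57 and JAK2 at -0.52, with JUNB above background on only 4 of the 6 arrays. SOCS3, the feedback inhibitor of gp130 that was looked at after the values were seen, stood at 0.02.

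Immediate early genes, whose mRNAs also respond to handling of the cells, were read beside the cytokines. In DROSHA-sh against control 9 of 11 were above 0, with a median of 0.26, and 7 of 11 lay above control with no overlap (19.1% of all probes) and 2 of 11 below (18.2%). The log2 difference was 1.19 for EGR1 (standard error 0.29), 0.84 for FOSB (0.26) and 0.57 for ATF3 (0.27). In DICER1-sh against control 5 of 11 were above 0 and the median was 0. Their part in the cytokine values was not tested.

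Other secreted inflammatory genes were mixed. Of 25 listed, 13 were measured, and 8 of 13 were above 0 in DROSHA-sh against control, with a median of 0.05. CXCL16, a transmembrane chemokine, had 8.11 and 8.23 in DROSHA-sh cells, 7.68 and 7.06 in DICER1-sh cells, and 6.88 and 6.69 in control cells, a difference from control of 1.38 with a standard error of 0.31. IL32, which had 2 kept probes, was 1.16 above control at the brighter one (standard error 0.32), and the other was not read. TNFSF10, the death ligand TRAIL, was 0.60 above control (standard error 0.33).

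**Figure D4:**
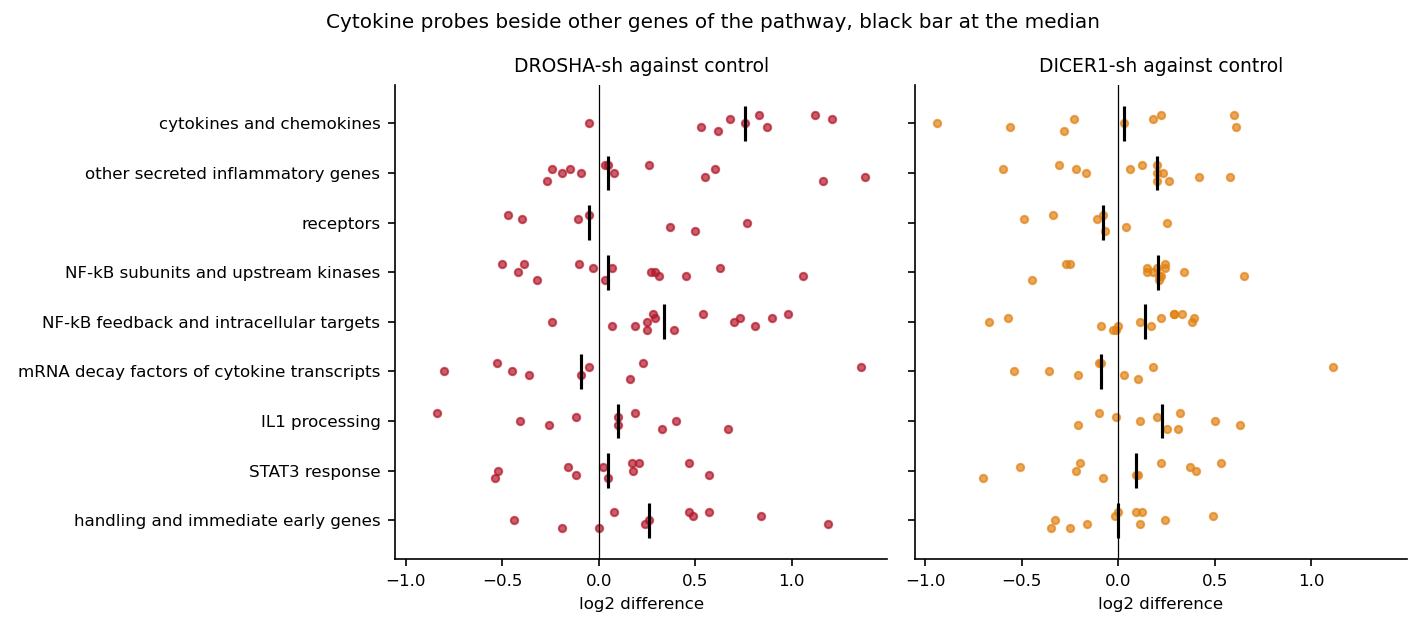
Log2 difference from control of each measured gene (points) in DROSHA-sh and DICER1-sh cells, for the 9 cytokine and chemokine probes and 8 lists of pathway genes, with a black bar at each median. In DROSHA-sh the medians are 0.76 for the cytokine probes, 0.34 for NF-kB feedback genes and 0.26 for immediate early genes, and the other 6 lists lie between -0.09 and 0.10.

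Genes of like pattern were sought over the 6 arrays among 3770 named genes above background on all of them and spanning at least 1 log2 unit. The pattern was the mean standardised profile of the 8 member genes measured on all arrays, which was 0.74 and 1.22 in DROSHA-sh, -0.20 and -0.65 in DICER1-sh, and -0.87 and -0.24 in control cells. IL6 followed that profile most closely among the members (Pearson r = 0.99), IL1B next (0.96), and CXCL8 and IL1A least (0.62 and 0.58). The 5 genes of highest correlation were ATP5MK (0.984), a small subunit of the ATP synthase, RNF4BP (0.976), DGCR8 (0.972), the RNA-binding partner of DROSHA, THBD (0.970), the thrombin receptor thrombomodulin, and SCG5 (0.963), a secretory granule chaperone. DGCR8 had 9.86 and 9.88 in DROSHA-sh cells, 9.02 and 8.46 in DICER1-sh cells, and 8.58 and 8.87 in control cells. These correlations describe 6 arrays that share 3 groups and carry no test.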

How the data were processed

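Per the labels, total RNA was hybridised as biotin-labelled cRNA to 6 Illumina arrays, 2 per group. The first table the authors deposited gives, per the file headers, mean bead intensity by probe, unscaled between arrays, with a detection p-value beside each. The second holds the authors' deposited processed intensity, negative in part and of equal distribution on all arrays, by a method not given in the sources used here. The submitters' processing notes name GenomeStudio.

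Normalisation was by the neqc function (limma 3.58.1, R 4.3.3: normexp through the detection p-values, offset 16, then quantile and log2). Probes with a detection p-value below 0.05 on at least 2 of 6 arrays were kept, 22091 of 47319. Symbols came from the platform annotation, which gave 30112 probes 1 symbol, 8 several and 17199 none, and 30073 were updated by Entrez number through RefSeq (GRCh38.p14). Each probe was tested as itself with lmFit and eBayes over all 3 groups (3 residual and 4.09 prior degrees of freedom), and every adjusted p is from limma. The limma step was run on simulated data with independent noise on each array, which checks the code and not the fit to these arrays. Lists used the brightest kept probe of a gene.

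The members and lists were chosen with earlier results of these data known. Named were all members, DICER1 and DROSHA, the 3 genes with the smallest p per list in DROSHA-sh against control, and the 5 of most like pattern. Markers, genes of the chromosome 4 cluster and SOCS3 are named outside this rule, SOCS3 after its value was seen. The number of arrays limits the precision. Replicate numbers were not taken to pair the arrays: same-numbered deviations correlated at -0.65 between DICER1-sh and control, 0.0215 between DROSHA-sh and DICER1-sh and -0.0331 between DROSHA-sh and control. Alternatives changed the background correction, normalization, source of the values, filter, probe choice, arrays, weights, variance model and block.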

Additional observations from a re-analysis of the deposited data

How the results depend on the processing

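Of 510 member values under other settings, 0 passed the threshold and 11 changed sign. Apart from leaving out an array, the 1 that did was IL1B in DICER1-sh against control, at -0.03 with median scaling; the cause was not tested. Leaving out 1 array moved CXCL8 ILMN_1666733 in DROSHA-sh against control between -0.58 and 0.48, LIF in DROSHA-sh against DICER1-sh between -0.21 and 0.73, and in DICER1-sh against control IL6 between -0.20 and 0.56, IL1B between -0.25 and 0.31, CXCL1 between -0.73 and 0.16, CXCL2 between -0.15 and 0.59 and IL1A between -0.66 and 0.20. The count of members with both DICER1-sh arrays above both control arrays was 1 to 5, and the share of all probes 10.4% to 39%, a check chosen after seeing the data. With 1 array left out, the member median lay between 0.54 and 1.07 in DROSHA-sh against control, -0.20 and 0.31 in DICER1-sh against control, and 0.68 and 0.92 in DROSHA-sh against DICER1-sh. With no background correction the member median was 0.52 in DROSHA-sh against control and 0.60 in DROSHA-sh against DICER1-sh. With normexp at an offset of 50 these medians were 0.58 and 0.64. The cause was not tested.

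Probes past the threshold in DROSHA-sh against DICER1-sh were 1 with the brightest probe per gene and 2 with array weights, none of them a member. With the replicate number as a block the count was 0 in each comparison, and the block changed no call. The pairing of control 1 with DICER1-sh 2 as a crossed replicate block, added after seeing the data, gave 6 in DROSHA-sh against control, 6 in DROSHA-sh against DICER1-sh and 0 in DICER1-sh against control. No member was among them, the smallest adjusted p of a member in limma being 0.707 over the 3 comparisons. CXCL3 was not above background, and the dim probes of CCL20, IL1A and LIF had smaller differences without background correction. In DROSHA-sh against control the same held for CXCL2 (0.57), IL1B (0.62), CXCL1 (0.51) and IL6 (1.07). The CXCL8 probes hardly moved, at 0.52 for ILMN_2184373 and -0.05 for ILMN_1666733.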

Other observations

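Several inflammatory genes that other cell types are known for were not above background in these cells. CCL2, CCL4, CCL7, CCL8, CXCL5, CXCL6, CXCL11, CXCL12, IL33, TNF and CSF3 had no probe above background on any of the 6 arrays, and CCL3 had it on 1.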
